A study of Rattus norvegicus with 8 samples.

Results

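Of the 10 genes for the synthesis, sensing and transport of bile acids examined here, 9 were measured in regenerating rat liver. They are Cyp7a1, Cyp8b1, Cyp27a1, Cyp7b1, Slc27a5, Baat, Nr1h4, Nr0b2 and Slc10a1, each with 1 probe set that the platform annotation assigns to that symbol alone. Abcb11, the bile salt export pump, has no probe set under its symbol in that annotation and is not analysed here. The array names 18166 genes in all, and 8690 of them, with all 9 measured bile acid genes among them, had a mean log2 level of at least 5 and were tested.

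All livers came from male Sprague-Dawley rats, an outbred strain, and the arrays form 8 groups of 1 array each. Rats received ethanol chronically or, as controls, a pair-fed carbohydrate diet, so that both diets were matched in intake. In each diet, rats were untreated or had received AM21, an LNA-modified antisense oligonucleotide to miR-21, by intraperitoneal injection at 7.5 mg/kg, first 72 h ahead of a 70% partial hepatectomy (PHx) and once more directly afterwards. Liver was frozen at the operation (0 h) and 24 h later. Each array carried RNA pooled from 3 (AM21) or 4 (untreated) rats, and the animal identifiers show that the same rats gave both times, so there are 4 pools with 2 arrays each. The spread between animals was therefore not measured. Sham-operated rats and a control oligonucleotide were not analysed here, so a change with PHx cannot be told apart from the surgery or the passage of time. Effects of AM21 cannot be told apart from those of an injection or of the separate cohort of animals. The LNA oligonucleotide binds the mature miR-21, given here from RefSeq (chr10:71902653-71902674 on the - strand, GRCr8) with its seed, bases 2 to 8, in capitals.
rno-miR-21-5p: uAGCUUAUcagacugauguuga

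Bile acids are made from cholesterol in hepatocytes and help digest fat. The classic route starts with Cyp7a1, its rate-limiting step, and Cyp8b1 directs its product towards cholic acid. The alternative route starts with the mitochondrial sterol hydroxylase Cyp27a1 and continues with the oxysterol hydroxylase Cyp7b1. Slc27a5 activates bile acids with coenzyme A and Baat joins them to glycine or taurine. Nr1h4 encodes FXR, the nuclear receptor that bile acids activate. FXR induces Nr0b2, which encodes SHP, a repressor without a DNA-binding domain that lowers Cyp7a1 and Cyp8b1 by acting on other factors such as LRH-1 (Nr5a2). Slc10a1 encodes NTCP, which takes conjugated bile acids up from portal blood. After PHx the bile acids returning from the gut meet a much smaller liver, and rodent livers that lack FXR regrow slowly.

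Of the 9 measured genes, 5 fell and 1 rose at 24 h (limma, adjusted p under 0.05). The falls were in Slc10a1 (2.26-fold), Nr0b2 (2.25-fold), Cyp27a1 (2.11-fold), Nr1h4 (1.53-fold) and Slc27a5 (1.45-fold), and the rise was in Cyp7b1 (1.59-fold). Among all 8690 tested genes 12.8% fell and 15.3% rose by the same rule. With arrays centred on the median the balance of all genes turned, from 1330 higher and 1113 lower to 1164 higher and 1416 lower, while the number of the 9 called stayed at 6. The median change of the 9 was -0.54 on the log2 scale, against 0.01 over all tested genes. In 5 of the 9 (Cyp27a1, Nr1h4, Nr0b2, Slc10a1 and Baat) all 4 arrays at 24 h lay below all 4 at 0 h, as in 13.7% of all tested genes. In 0 of the 9 did all 24 h arrays lie above all 0 h arrays, as in 17.4% of all tested genes. The number called was 3, 5, 5 and 7 with 1 pool left out, and the 3 came without the ethanol-fed untreated pool.

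The upstream sequences of the genes that fell most, and of Cyp8b1 for comparison, are shown for the nuclear receptor motifs in them. They hold the 250 bases before the RefSeq start (GRCr8), and 6 of the 10 genes (Cyp8b1, Cyp27a1, Nr0b2, Slc10a1, Slc27a5 and Baat) had such a sequence in the table used. The windows are chr5:151062910-151063159 on the + strand for Nr0b2, chr8:130457593-130457842 on the - strand for Cyp8b1, chr9:83713282-83713531 on the + strand for Cyp27a1 and chr6:106357945-106358194 on the - strand for Slc10a1, each written along its gene. Capitals mark matches to AGGTCA, the half-site of nuclear receptors, or to CAAGGNCA, a form bound by LRH-1, on either strand.
Nr0b2: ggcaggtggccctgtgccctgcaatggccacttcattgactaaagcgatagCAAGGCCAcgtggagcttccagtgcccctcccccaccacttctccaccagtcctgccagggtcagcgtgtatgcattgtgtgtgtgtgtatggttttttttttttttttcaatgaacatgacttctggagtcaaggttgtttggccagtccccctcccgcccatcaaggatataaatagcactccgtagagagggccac
Cyp8b1: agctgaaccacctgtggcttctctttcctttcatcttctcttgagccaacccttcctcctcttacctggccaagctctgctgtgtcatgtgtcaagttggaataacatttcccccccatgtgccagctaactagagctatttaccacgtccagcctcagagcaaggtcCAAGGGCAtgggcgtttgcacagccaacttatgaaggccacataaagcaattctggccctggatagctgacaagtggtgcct
Cyp27a1: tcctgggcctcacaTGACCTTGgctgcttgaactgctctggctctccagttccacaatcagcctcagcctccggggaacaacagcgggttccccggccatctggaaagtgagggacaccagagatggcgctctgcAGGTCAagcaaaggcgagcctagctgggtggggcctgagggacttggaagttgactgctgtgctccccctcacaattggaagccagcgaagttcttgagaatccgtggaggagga
Slc10a1: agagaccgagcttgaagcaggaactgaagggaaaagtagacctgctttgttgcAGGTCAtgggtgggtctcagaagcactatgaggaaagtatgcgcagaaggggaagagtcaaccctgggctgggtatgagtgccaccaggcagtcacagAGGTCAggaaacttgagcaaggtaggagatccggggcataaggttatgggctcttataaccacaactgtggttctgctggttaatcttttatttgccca

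CAAGGNCA occurred in 3 of the 6 windows (Nr0b2, Cyp8b1 and Cyp27a1) and in 5.58% of 33469 rat windows of the same length. Counted from the start, its first base lies at -199 in Nr0b2 (as CAAGGCCA), at -82 in Cyp8b1 (as CAAGGGCA) and at -236 in Cyp27a1, there as TGACCTTG of the other strand, which overlaps an AGGTCA match. AGGTCA occurred in 2 of the 6 (Cyp27a1 and Slc10a1, each with 2 matches) and in 14.1% of all windows. CAAAGTCCA, a sequence of the kind HNF4A binds, occurred in Baat alone and in 0.338% of all windows. IR1, the inverted repeat of AGGTCA with 1 base between that FXR binds, had no exact match in the 6 windows nor one with up to 2 mismatches, against 0.0269% and 1.24% of all windows. DR1, the direct repeat with 1 base between, had no exact match (0.0508% of all windows), and with up to 2 mismatches it matched Cyp8b1 alone (3.15% of all windows), at AGGTCCAAGGGCA, over the CAAGGNCA match. Both strands were searched. These matches describe letters and not binding.

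Levels below are deposited log2 values (RMA), given first for the pair-fed livers without and with AM21 and then for the ethanol-fed livers without and with it. Changes are log2 differences ± SE of the fit over the 4 pools.

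**Figure D1:**
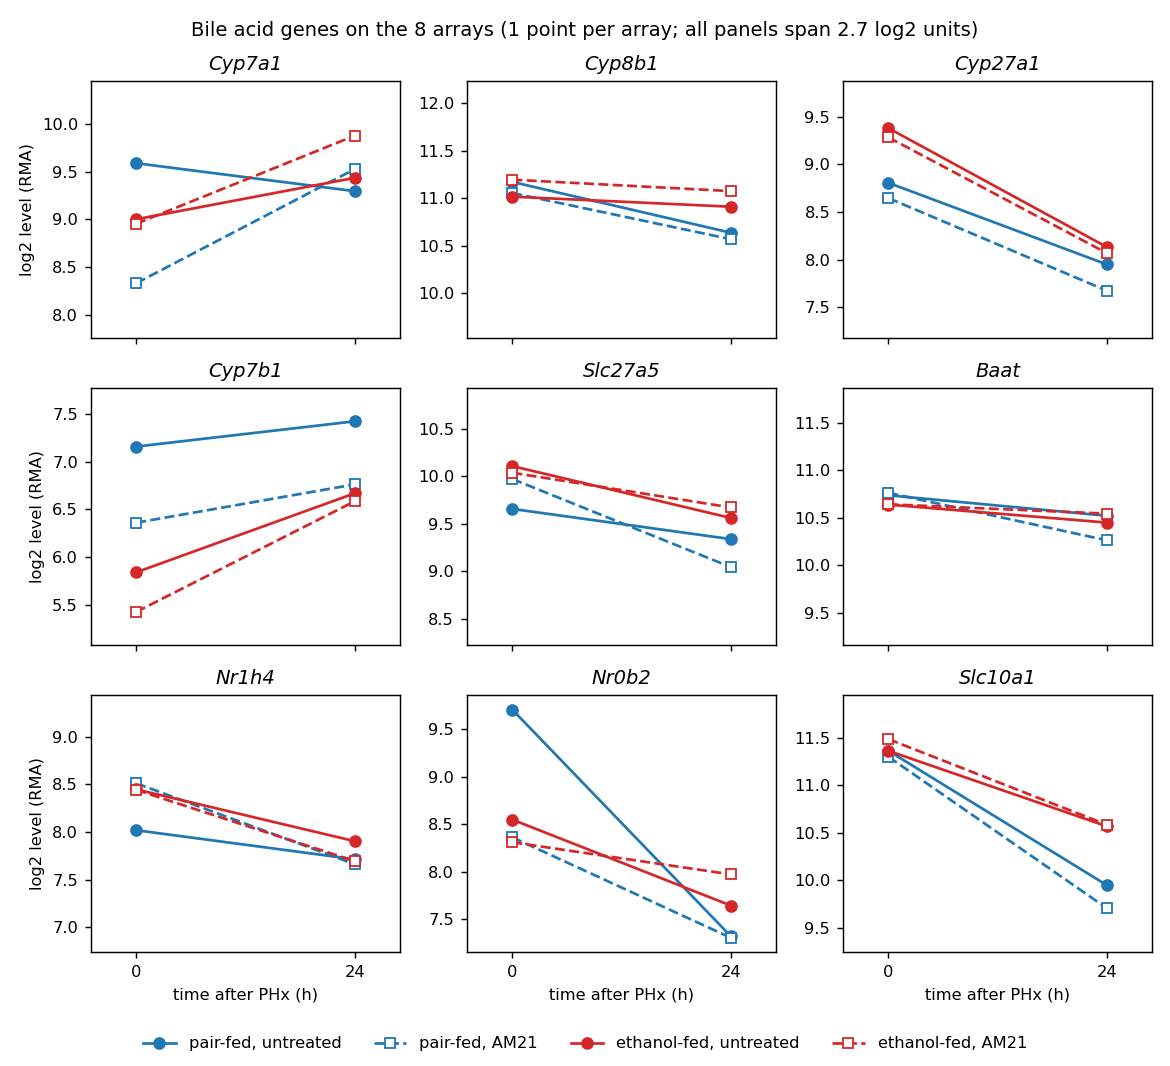
Log2 level of the 9 genes (y axis, RMA) at 0 h and 24 h after PHx (x axis), 1 point per array, with a line joining the 2 arrays of a pool; colour gives the diet and filled circles or open squares give untreated or AM21. The lines of Cyp27a1, Slc10a1 and Nr1h4 slope down in every pool, those of Cyp7b1 slope up, and the pair-fed untreated line of Cyp7a1 runs opposite to the other three.

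Cyp7a1 and Cyp8b1 of the classic route did not pass the test, which was made gene by gene and not for a route. Cyp7a1 read 9.59, 8.33, 9.0 and 8.95 at 0 h and 9.30, 9.53, 9.44 and 9.88 at 24 h. The 0 h arrays were spread over more than the 24 h arrays, with means of 8.97 ± 0.515 and 9.54 ± 0.25 (SD, n = 4 arrays), and the 2 times overlapped. Its change was 0.57 ± 0.23 (adjusted p = 0.118). By pool the differences were -0.29, 1.20, 0.44 and 0.93, so only the pair-fed untreated pool was lower at 24 h. Without that pool the change was 0.85 (adjusted p = 0.0256; 0.0256 to 0.439 over its alternatives). Ethanol-fed pools alone gave 0.68 (adjusted p = 0.0293).

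Cyp8b1 read 11.17, 11.05, 11.02 and 11.19 at 0 h and 10.64, 10.57, 10.91 and 11.07 at 24 h. The 2 pair-fed arrays at 24 h were the lowest of the 8, and the 2 times overlapped through the ethanol-fed AM21 pool. Its change of -0.31 ± 0.11 did not pass (adjusted p = 0.0789). It did with a variance trend over level (adjusted p = 0.0327), as did that of Baat (0.0407).

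The genes of the first and second enzymes of the alternative route moved in opposite directions. Cyp27a1 read 8.81, 8.65, 9.38 and 9.28 at 0 h and 7.95, 7.67, 8.13 and 8.07 at 24 h. Every 24 h array was below every 0 h array, and at both times the 2 ethanol-fed arrays were the highest. Cyp27a1 fell by 1.07 ± 0.10 (adjusted p = 0.00166), with pool differences from -1.25 to -0.86.

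Cyp7b1 read 7.16, 6.36, 5.84 and 5.42 at 0 h and 7.43, 6.76, 6.67 and 6.59 at 24 h. It was higher at 24 h in each of the 4 pools, but the times overlapped because the pools started far apart. Cyp7b1 rose by 0.67 ± 0.16 (adjusted p = 0.0236), with pool differences of 0.27 and 0.40 (pair-fed) and of 0.83 and 1.16 (ethanol-fed). The call was lost without the ethanol-fed AM21 pool (0.50, limma, adjusted p = 0.0676), without the ethanol-fed untreated pool (0.61, adjusted p = 0.0809) and in pair-fed pools alone (0.33, adjusted p = 0.245). In ethanol-fed pools alone the change was 1.00 (adjusted p = 0.00679). Over all its alternatives the adjusted p ran from 0.00679 to 0.245.

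Of the conjugation enzymes, the bile acyl-CoA synthetase gene Slc27a5 read 9.66, 9.97, 10.11 and 10.04 at 0 h and 9.34, 9.04, 9.56 and 9.67 at 24 h. All 4 pools were lower at 24 h, although the 2 times overlapped by the ethanol-fed AM21 array. Slc27a5 fell by 0.54 ± 0.12 (limma, adjusted p = 0.0197). The call was lost at like sizes without the ethanol-fed untreated pool (-0.54, adjusted p = 0.0656) and in pair-fed pools alone (-0.62, adjusted p = 0.109). It held in ethanol-fed pools alone (-0.45, adjusted p = 0.0397). Baat, the conjugating acyltransferase, read 10.74, 10.76, 10.64 and 10.64 at 0 h and 10.52, 10.26, 10.45 and 10.55 at 24 h. Its 2 times did not overlap, yet the difference was small, at -0.25 ± 0.10 (adjusted p = 0.102).

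Both genes of the FXR and SHP axis fell. Nr1h4, the gene of FXR, read 8.02, 8.51, 8.45 and 8.44 at 0 h and 7.71, 7.66, 7.90 and 7.69 at 24 h. The pair-fed untreated array was the lowest of the 0 h arrays, and all 24 h arrays were lower still. Nr1h4 fell by 0.61 ± 0.11 (limma, adjusted p = 0.00995). In pair-fed pools alone the change was -0.58 (adjusted p = 0.119) and in ethanol-fed pools alone -0.65 (adjusted p = 0.0161).

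Nr0b2, the gene of SHP, read 9.70, 8.36, 8.55 and 8.31 at 0 h and 7.32, 7.31, 7.65 and 7.97 at 24 h. The pair-fed untreated 0 h array stood above the other 7, more than a log2 unit clear of the next. Nr0b2 fell by 1.17 ± 0.30 (adjusted p = 0.0305), with pool differences of -2.38, -1.06, -0.90 and -0.34. With the first of these pools left out the change was -0.77 (adjusted p = 0.0322). The call was lost, at changes no smaller, without the pair-fed AM21 pool (-1.21, adjusted p = 0.0850) and without the ethanol-fed untreated pool (-1.26, adjusted p = 0.0627; 0.0217 to 0.0850 over its alternatives).

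Slc10a1, the uptake transporter, read 11.36, 11.30, 11.36 and 11.48 at 0 h and 9.95, 9.70, 10.57 and 10.58 at 24 h. The 0 h arrays were alike (11.38 ± 0.08, SD, n = 4 arrays), and at 24 h (10.20 ± 0.44) the 2 pair-fed arrays lay below the 2 ethanol-fed ones. Slc10a1 fell by 1.18 ± 0.15 (adjusted p = 0.00332; 0.00115 to 0.0186 over its alternatives).

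**Figure D2:**
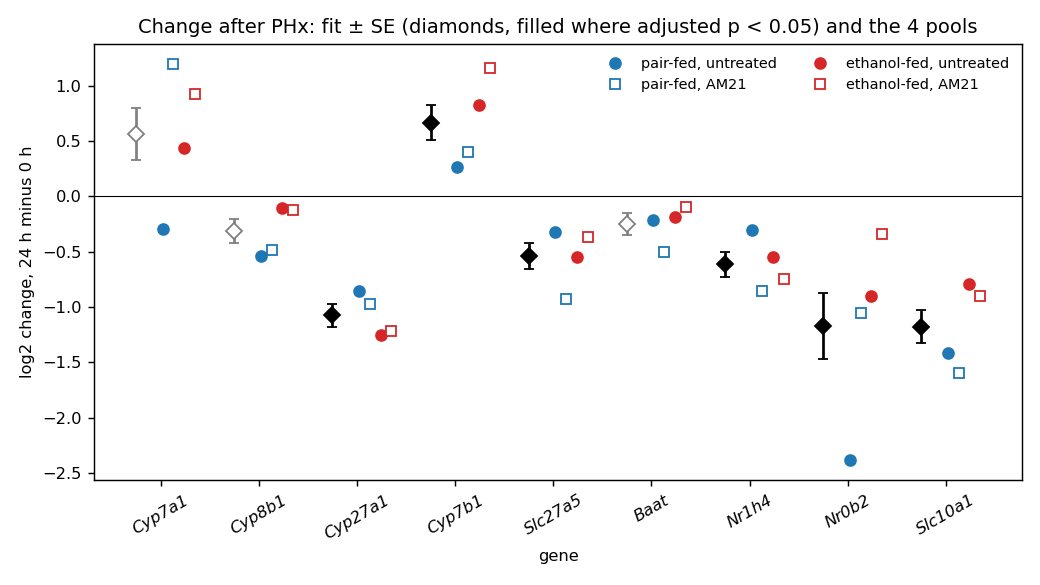
Log2 change from 0 h to 24 h (y axis) of each gene (x axis): diamonds give the fit over 4 pools with its SE, filled where the adjusted p was under 0.05, and the other symbols give the single pools. Slc10a1, Nr0b2 and Cyp27a1 have fitted changes of -1.18, -1.17 and -1.07, and the pools of Nr0b2 reach from -2.38 to -0.34.

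RNA from the whole tissue cannot tell fewer cells of a type from less RNA per cell. Levels of marker lists are log2 of the summed linear values of a list's probe sets. Hepatocyte markers (6 of 8 with a probe set, among them Alb) summed to 14.57 to 14.61 at 0 h and 14.55 to 14.57 at 24 h, and 0 of 6 were called by limma, with a median change of -0.02. Cholangiocyte markers (9 of 10 measured) summed to 7.74 to 8.13 and 7.86 to 8.37, with 5 under a level of 5 on every array and 0 of 3 tested called. Dividing-cell markers summed to 7.46 to 9.53 at 0 h and 11.68 to 12.60 at 24 h, and 6 of 6 rose. Cdk1, Ccnb1 and Mki67 read under 5 on the pair-fed 0 h arrays, so the sizes of their rises are uncertain. Neutrophil markers (7 of 7 measured) summed to 8.0 to 9.17 and 12.01 to 12.25, and 3 of 3 tested rose. Most of that sum was Lcn2 (11.94 to 12.08 at 24 h), which hepatocytes can also induce. Mpo, Camp, Ngp and Cxcr2 were under 5 on every array, and S100a8 read 4.30 to 4.82 at 0 h and 6.42 to 8.54 at 24 h. S100a9 read 4.55 to 5.18 and 5.82 to 7.87, so both passed the minimum through the 24 h arrays. Lymphocyte markers (7 of 8) summed to 8.71 to 9.15 and 8.08 to 8.38, and both of the 2 tested fell. They were Ccl5 (7.66 to 8.45 at 0 h and 6.57 to 7.50 at 24 h) and Cd4 (6.65 to 7.03 and 6.23 to 6.74). Cd3e, Cd3d, Cd79a, Cd8a and Ms4a1 were under 5 on every array, so the fall rests on Ccl5 and Cd4. Stellate cell markers (9 of 10) summed to 9.49 to 9.84 and 9.28 to 9.57, with 3 lower and 1 higher of 7 tested. Sinusoidal markers (5 of 8) summed to 9.70 to 10.15 and 9.46 to 10.09, with 2 of 5 lower. Of the Kupffer cell markers 2 of 10 fell and 1 rose. Among all tested genes 12.8% fell and 15.3% rose. The part of these cell types in the changes of the bile acid genes was not tested.

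The genes around the members, from 7 lists by role, gave 51 further tested genes, of which 11 fell and 5 rose, with a median change of -0.20 (limma, adjusted p of the 16 from 4.37e-04 to 0.0474). By the same rule 12.8% of all tested genes fell and 15.3% rose. The lists are small, and counts such as 1 or 2 genes of a list lie near those shares. In synthesis, 2 of 4 tested genes beside the members fell, the oxysterol hydroxylase Cyp39a1 (-0.79 ± 0.12) and the steroid dehydrogenase Akr1c14 (-0.29 ± 0.09). Hsd3b7 (-0.32 ± 0.11) and the reductase Akr1d1 (-0.03 ± 0.08) did not pass. In side chain shortening, 2 of 7 fell: Slc27a2, a very-long-chain acyl-CoA synthetase (-0.58 ± 0.11), and Scp2, the peroxisomal thiolase (-0.36 ± 0.09). Abcd3 (-0.30 ± 0.09) and Hsd17b4 (-0.22 ± 0.08), both of the peroxisome, did not pass.

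Of the 5 tested uptake genes beside Slc10a1, 3 fell. The organic anion transporters Slco1a4 (-1.13 ± 0.15), Slco2b1 (-0.84 ± 0.11) and Slco1b2 (-0.40 ± 0.08) fell. Slc10a2, the ileal transporter (0.39 ± 0.13), and the epoxide hydrolase gene Ephx1 (-0.17 ± 0.11) did not pass. Slc10a2 is also on the list of cholangiocyte markers used above. Of 7 tested export genes 2 rose and 0 fell. Abcb1b, a multidrug pump, rose by 3.60 ± 0.18, from 0 h levels of 4.71 to 5.40 that lie about the level minimum of 5 and leave the size uncertain. Abcb4, the phospholipid floppase of bile, rose by 0.78 ± 0.20. Abcc4 (0.39 ± 0.16), Abcc3 (0.11 ± 0.16) and Atp8b1 (-0.32 ± 0.12) did not pass. Abcc2 had no probe set with its name alone, and Slc51a, Slc51b and Abcg8 were below the level minimum. Among 11 tested regulators beside the members, 1 fell, the xenobiotic and bile acid receptor gene Nr1i2 (-0.45 ± 0.12). Nr5a2, the gene of LRH-1 (-0.30 ± 0.10), Rxra, the partner of FXR (-0.30 ± 0.11), and the hepatocyte transcription factor gene Onecut1 (-0.86 ± 0.32) did not pass.

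Of 7 tested detoxifying genes Cyp3a9 rose (0.93 ± 0.24) and Cyp2b1 fell (-2.93 ± 0.35), while Cyp3a2 (-0.62 ± 0.22) and Cyp3a23-3a1 (-0.50 ± 0.18) did not pass. Cyp2b1 read 2.86 to 5.65 at 24 h, below 5 on 2 of the 4 arrays, which leaves the size of its fall uncertain. Of 10 tested further targets of FXR from the literature, Kng1 (1.07 ± 0.13) and Akr1b7 (1.78 ± 0.38) rose, the latter from pair-fed 0 h levels of 3.53 and 4.24, under the minimum, so its size is uncertain. The lipid transfer protein gene Pltp (-0.77 ± 0.10) and Apoc2 (-0.38 ± 0.08), a lipoprotein lipase activator, fell. The list's median change was 0.04. Probe sets of close paralogs, such as the Cyp2b, Cyp3a, Slco1a, Abcb1, Akr1c and Kng genes, may cross-hybridise, and the values of single genes there are uncertain.

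**Figure D3:**
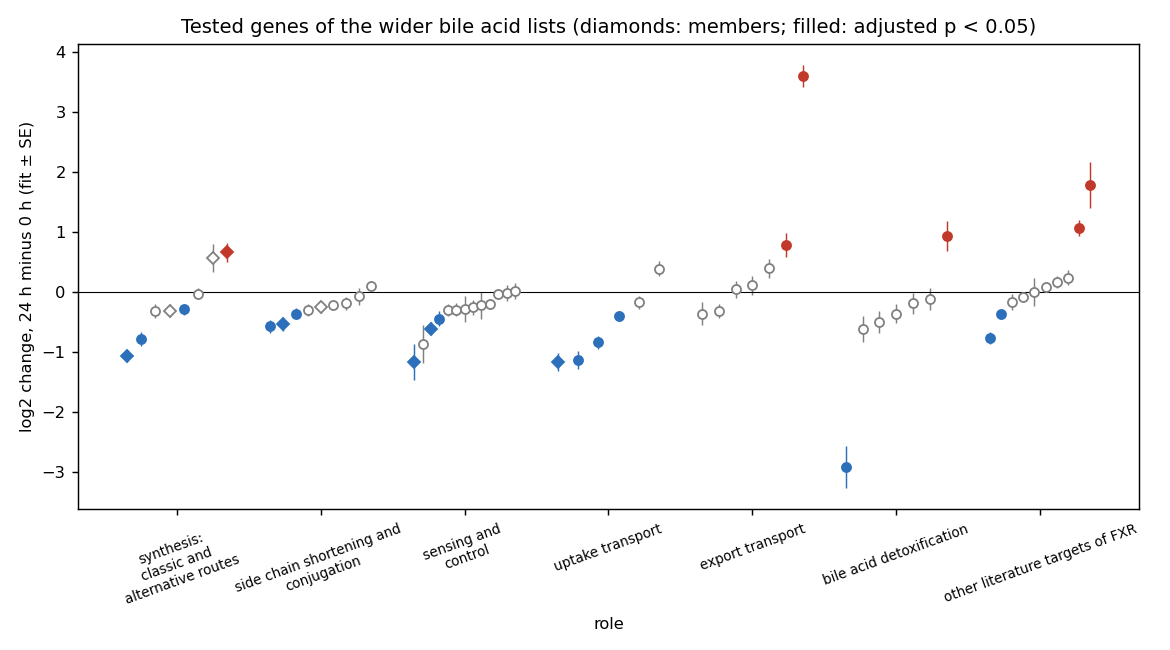
Log2 change from 0 h to 24 h with its SE (y axis) for every tested gene of 7 lists by role (x axis); diamonds are the 9 measured members, circles the other 51 genes, blue and red filled symbols those called lower and higher. In uptake transport 4 of 6 symbols are blue, and in export transport 2 of 7 are red.

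The next comparison asked what chronic ethanol feeding did to these genes, averaged over AM21 and time. By limma 0 of the 9 passed, against 0.380% of all tested genes called higher and 0.0806% called lower in ethanol-fed liver. At an unadjusted p under 0.05 there were 4 of the 9, and 1335 of 8690 genes. The median difference of the 9 was 0.15, against 0.02 over all tested genes. Cyp27a1 and Slc27a5 were higher in ethanol-fed liver in 4 of 4 pairs of arrays matched for treatment and time, as were 15.0% of all tested genes. Cyp7b1 was lower in 4 of 4, as were 8.99%. Each pool enters a 0 h and a 24 h pair, so the 4 pairs are not independent.

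For Cyp7b1 the ethanol-fed minus pair-fed differences were -1.32 (untreated) and -0.94 (AM21) at 0 h and -0.76 and -0.18 at 24 h. The fitted difference was -0.80 ± 0.17 (means of 6.13 ± 0.60 against 6.93 ± 0.47, SD, n = 4 arrays each; adjusted p = 0.0910). It passed with the 0 h arrays alone (-1.13, adjusted p = 0.0319) and when all 2-way interactions were fitted (adjusted p = 0.00568; 0.00568 to 0.324 over its alternatives). For Cyp27a1 the differences were 0.58 and 0.64 at 0 h and 0.18 and 0.40 at 24 h (fit 0.45 ± 0.10, adjusted p = 0.0935). Cyp7b1 and Cyp27a1 lay on opposite sides of 0 in every pair, but neither passed in the main fit. Among all tested genes, 15.0% were higher and 8.99% lower in 4 of 4 pairs.

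Slc10a1 differed between the diets by 0.00 and 0.19 at 0 h and by 0.62 and 0.88 at 24 h (fit 0.42 ± 0.15, adjusted p = 0.241). Slc27a5 differed by 0.45 and 0.07 at 0 h and by 0.22 and 0.63 at 24 h (fit 0.34 ± 0.11, adjusted p = 0.220). The fitted differences of the other five were 0.13 ± 0.25 for Cyp7a1, 0.19 ± 0.11 for Cyp8b1, 0.15 ± 0.12 for Nr1h4, -0.05 ± 0.31 for Nr0b2 and 0.00 ± 0.10 for Baat. Beside the members, 2 genes of the wider lists were higher in ethanol-fed liver. Abcc3, the basolateral exporter of bile salts and conjugates, was higher by 1.48 ± 0.17 (adjusted p = 0.0261), with 4.72 to 5.26 on pair-fed and 6.0 to 6.94 on ethanol-fed arrays. Cyp2b1 was higher by 2.90 ± 0.34, with 2.86 to 6.24 and 5.18 to 9.62. In both genes 3 of the 4 pair-fed arrays were under the level minimum of 5, which they passed through the ethanol-fed arrays, so the sizes are uncertain. Kupffer cell markers (10 of 10 measured) summed to 11.04 to 11.31 on pair-fed and 11.54 to 11.74 on ethanol-fed arrays; their part in these differences was not tested.

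**Figure D4:**
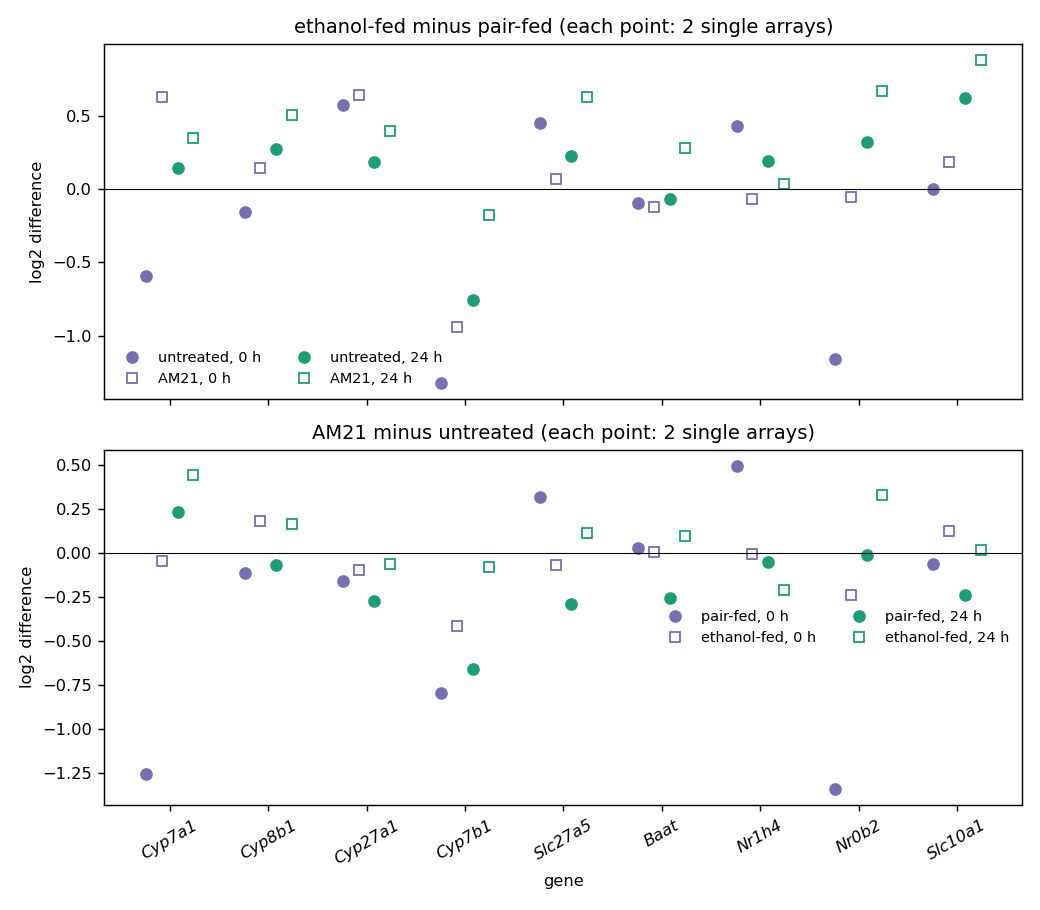
Log2 differences (y axis) of the 9 genes (x axis) between 2 single arrays: ethanol-fed minus pair-fed above, AM21 minus untreated below, with 0 h pairs in purple and 24 h pairs in green. In the upper panel all 4 points of Cyp7b1 lie below 0 and all 4 of Cyp27a1 above it, and in the lower panel the pair-fed 0 h points of Cyp7a1 and Nr0b2 lie at -1.26 and -1.34.

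Whether the response to PHx differed between the diets was tested as an interaction, and 0 of the 9 passed by limma (0.0690% of all tested genes were called with a higher and 0.460% with a lower response in ethanol-fed pools). At an unadjusted p under 0.05 there were 3 of the 9 and 943 of 8690. The Slc10a1 response was -1.41 and -1.59 in the pair-fed pools but -0.79 and -0.90 where ethanol was fed, a difference of 0.66 ± 0.20 (adjusted p = 0.251). In Nr0b2 the difference was 1.10 ± 0.24 (adjusted p = 0.110), in Cyp7b1 0.66 ± 0.20 (0.253) and in Cyp8b1 0.40 ± 0.20 (0.539). With a variance trend over level Slc10a1 and Nr0b2 passed (adjusted p = 0.00266 and 0.00843), where the alternatives ran to 0.591 and 0.351. Of the wider lists 1 gene passed, Cyp2b1 (-1.66 ± 0.20, adjusted p = 0.0149), whose pair-fed 24 h levels of 2.86 and 3.82 were under the level minimum, so the size is uncertain. Of the dividing-cell markers, 5 of 6 had a smaller response in ethanol-fed pools, and their part was not tested. On the pair-fed 0 h arrays, without and with AM21, Cdk1 (3.98 and 3.72), Ccnb1 (4.04 and 3.73) and Mki67 (4.95 and 4.58) were under the level minimum. In ethanol-fed liver at 0 h they read 5.40 and 4.91, 5.70 and 5.26, and 6.21 and 5.60. The sizes of these smaller responses are therefore uncertain.

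The last comparison asked whether these genes differed between livers with AM21 and untreated livers. Averaged over diet and time, 0 of the 9 and 0% of all tested genes were called in either direction by limma, and 538 of 8690 genes and 1 of the 9 had an unadjusted p under 0.05. That member was Cyp7b1, with AM21 minus untreated differences at 0 h and 24 h of -0.80 and -0.66 (pair-fed) and -0.42 and -0.08 (ethanol-fed; fit -0.49 ± 0.17, adjusted p = 0.763). Cyp7b1 and Cyp27a1 were lower with AM21 in 4 of 4 pairs, as were 11.2% of all tested genes, and 0 of the 9 were higher in 4 of 4, as were 4.40%. The fitted differences of the other seven ran from -0.32 ± 0.31 for Nr0b2 to 0.06 ± 0.12 for Nr1h4.

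Cyp7a1 and Nr0b2 differed most between single arrays in the untreated and AM21 pair-fed livers at 0 h. Cyp7a1 read 9.59 without and 8.33 with AM21 there, a difference of -1.26, against -0.05 in ethanol-fed liver at 0 h and 0.23 and 0.44 at 24 h. Nr0b2 read 9.70 and 8.36 (-1.34), against -0.24 at 0 h in ethanol-fed liver and -0.02 and 0.33 at 24 h. Both differences rest on the same 2 arrays and have no replicate check. The interaction of PHx with AM21 was 0.99 ± 0.27 for Cyp7a1 (adjusted p = 0.466) and 0.95 ± 0.24 for Nr0b2 (adjusted p = 0.414). It passed in 0 of the 9 and in 0% of all tested genes by limma, while 2 of the 9 and 604 of 8690 had an unadjusted p under 0.05. With a variance trend Cyp7a1 passed (adjusted p = 0.0305; 0.0305 to 0.742 over its alternatives).

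Some genes followed members closely over the 8 arrays, which fall into 2 times and are not independent points. For Slc10a1 the highest Pearson r were with Akr1c14 (0.994), Hibadh (0.994) and Dhtkd1 (0.992), and for Nr0b2 with Itgb5 (0.986), Wwp1 (0.985) and Mtarc2 (0.982). Those of Cyp8b1 were with Tns1 (0.988), Mmrn2 (0.972) and Etfa (0.970). Cyp7a1 was closest to Hmga1 (0.963), Tcea1 (0.937) and Ndufs4 (0.914).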

How the data were processed

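Liver RNA of 4 pools of rats, each at 0 h and 24 h, was measured on 8 arrays. The authors deposited log2 values. The submitters' processing notes name RMA and Affymetrix Expression Console, with no version given in the sources used here. RMA makes the array distributions alike, so a shift of most genes together would not show. The precision is limited by there being 4 pools.

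Of 36685 probe sets, 18511 carry 1 symbol, 575 several and 17599 none here; the brightest one stood for a gene. Fits were made with limma 3.58.1 (R 4.3.3) across all 8690 genes with a mean level of at least 5, and p-values were adjusted by Benjamini-Hochberg (threshold 0.05). The PHx response and its interactions had the pool as a fixed block (3 and 1 residual degrees of freedom). The pairing rests on the animal identifiers. Diet and AM21 effects came from 1 additive fit. Its correlation within pools was estimated at -0.371 and set to 0, so it treats 8 arrays of 4 pools as independent, and the fit on pool means is an alternative. Fits were also run on simulated arrays, with a shared pool effect that makes the correlation within pools positive, unlike the estimate here. The outcome is not given here and is not used as support.

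The members and lists were chosen with earlier results of these data known. All members are named, with up to 4 further genes per list by smallest p of the PHx response, any further gene passing another comparison, and the 3 genes most like each of 4 members.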

Additional observations from a re-analysis of the deposited data

Results flagged for a closer look

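In 4 cases both pairs of one group lay on one side of 0 and both pairs of the other group on the other side. Every gene was checked over several splits, and the share of all tested genes meeting this rule was not counted. The number of cases is therefore not read as a result about these genes. For Cyp7a1, AM21 minus untreated was -1.26 (pair-fed) and -0.05 (ethanol-fed) at 0 h and 0.23 and 0.44 at 24 h, a difference between the times of 0.99, which did not pass as an interaction (adjusted p = 0.466). For Nr0b2, ethanol-fed minus pair-fed was -1.16 (untreated) and -0.05 (AM21) at 0 h and 0.32 and 0.67 at 24 h, a difference of 1.10 (adjusted p = 0.110). In both, the largest single difference involves the pair-fed untreated 0 h array.

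For Cyp8b1, AM21 minus untreated was -0.12 at 0 h and -0.07 at 24 h with pair-feeding, against 0.18 and 0.16 with ethanol, a difference between the diets of 0.26. For Slc10a1 it was -0.06 and -0.24 against 0.12 and 0.02, a difference of 0.22. These differences between the diets were not tested.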

How the results depend on the processing

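Of the 9 genes, 6 were called with PHx, between 3 and 7 with 1 pool left out, 3 in pair-fed pools alone, 7 in ethanol-fed pools alone and 6 with no replicate block. By diet 0 were called, but 1 with 0 h arrays alone and 1 with all 2-way interactions (Cyp7b1 in both), and 0 with any 1 array left out or on pool means. With a variance trend the interactions gave 2 calls with diet and 1 with AM21, in place of 0. No other alternative changed these counts by over 1.5 times, and no called gene turned its direction. Over single genes, 487 of 504 values kept their side of the threshold, 9 gained and 8 lost a call. The cause of these shifts was not tested. Among all genes, the PHx count of 2443 was 1466 to 1705 with 1 pool left out, 1000 in pair-fed pools and 1696 in ethanol-fed pools. The diet count of 40 was 11 with no level filter, 88 with a trend, 102 on pool means, 101 at 0 h, 0 at 24 h, 285 with interactions and 0 to 18 without 1 array. The count for PHx by diet of 46 was 0 with no filter, 16 at a minimum of 6 and 226 with a trend. That for PHx by AM21 of 0 was 51 with a trend, and that for AM21 of 0 was 8 with interactions. The interactions leave 1 residual degree of freedom, and leaving out an array there could not be fitted.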

Other observations

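The array has a probe set named Mir21, which reads the transcript of the miR-21 locus. It read 6.17, 5.16, 5.53 and 4.93 at 0 h and 4.94, 4.53, 4.74 and 4.80 at 24 h, first for the pair-fed livers without and with AM21 and then for the ethanol-fed livers without and with it. AM21 is directed at the mature microRNA, so these levels, close to the level minimum of 5, do not check whether it was blocked.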
